A study of Mus musculus with 3 samples.

Results

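Small nucleolar RNA and U RNA genes were followed in mouse kidney during nephrotoxic nephritis and its treatment with prostaglandin E2 (PGE2). The members were all genes with a symbol that begins with Snord, Snora or Rnu and a digit, measured by a probe set with that symbol alone. There were 56 of them among 19938 genes, read by 61 probe sets, with 31 C/D box genes (Snord), 20 H/ACA box genes (Snora) and 5 U RNA genes (Rnu). The kidneys came from female CBL/6 mice of 8 to 10 weeks and were read on Affymetrix Mouse Gene 1.0 ST arrays. One array was made for the NTS/PGE2 group, which was injected once with sheep nephrotoxic serum (NTS), an antiserum against the glomerulus, at 13.5 ug per g of body weight, and then given PGE2 daily at 5 ug per g from day 2. A second array was made for the NTS group, which had the serum alone. The third was made for non-treated control mice. Treated mice were sacrificed on day 7, and the labels do not say how many animals gave the RNA of an array. With 1 array per group nothing could be tested and no p-value is given; how far kidneys of a group differ from each other is unknown, and the small number of arrays is what limits the precision here.

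Small nucleolar RNAs work in the nucleolus as guides within protein particles. C/D box RNAs carry fibrillarin and direct ribose methylation of ribosomal RNA, and H/ACA box RNAs carry dyskerin and direct the change of uridine to pseudouridine. A few, such as U3, U8, U14, U17 and U22, are needed for cutting the ribosomal RNA precursor. Most mammalian snoRNAs are cut out of introns of host genes, many of which encode ribosomal proteins or are non-coding, while U3, U8 and the spliceosomal U RNAs are transcribed from promoters of their own. Kidney tubule cells that survive injury re-enter the cell cycle, a state in which ribosomes are made.

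All values below are deposited log2 values, and a difference of 1 is 2-fold. For a comparison a gene had to be as bright, on the array where it was higher, as that array's median probe set, which is called passing the filter below. Such a gene was counted where it differed 2-fold or more, by size alone and without a test. For scale, the SD of a single probe set's difference, taken from 435 genes read by 2 bright probe sets, was 0.19 for NTS minus control, 0.19 for NTS/PGE2 minus NTS and 0.12 for NTS/PGE2 minus control; it holds no spread between animals. The median over all probe sets was 7.14 for NTS/PGE2, 7.11 for NTS and 7.11 for control, and the 25th percentile, below which a value may be background, was 5.79, 5.78 and 5.77. Member values ran from 2.53 to 12.99, with medians of 7.93, 9.23 and 8.30 in the same order. In every comparison, less RNA per cell and fewer cells holding it cannot be told apart.

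Most of the snoRNA genes were higher with NTS than in control, and every H/ACA gene among the members was. The median difference over the 56 members was 0.51, beside 0.00 over all genes. It was 0.47 for the 31 C/D box genes, 1.06 for the 20 H/ACA genes and 0.12 for the 5 U RNA genes. Over the genes that passed the filter the medians were 0.51 for C/D box, 1.06 for H/ACA and 1.74 for the 2 U RNA genes left. The order of the H/ACA and U RNA classes by symbol thus turns with the filter. It does so through Rnu3a at 2.46, which is U3 and by its function a C/D box RNA. The other U RNA gene, Rnu12, was at 1.02, below the H/ACA median. Members higher on the NTS array numbered 44, lower ones 7 and exactly equal ones 5; among all genes 32.8% were higher and 30.2% lower. Each of the 20 H/ACA genes was higher, with differences between 0.13 and 2.48. The smallest, 0.13 in Snora21 and 0.15 in Snora16a, lay under the SD of 0.19 for a single probe set's difference. Among the 47 members that passed the filter, 15 were at least 2-fold higher and 0 at least 2-fold lower, where the background over all genes that passed was 2.70% higher and 5.42% lower. The 15 were made up of 10 of 20 H/ACA genes, 3 of 25 C/D box genes and 2 of 2 U RNA genes that passed. Of the H/ACA genes called, Snora75, Snora41, Snora62 and Snora20 read 6.16, 6.28, 6.99 and 7.05 in control. Those values lay below the control array's median probe set at 7.11, so these genes passed through the NTS array alone. Without the filter the counts were 10 of 20, 3 of 31 and 2 of 5 for the same classes, beside 355 of 19938 over all genes.

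Set against the NTS array, the NTS/PGE2 array read most of the same family lower. The median difference, NTS/PGE2 minus NTS, was -0.86 over all members, -0.78 for C/D box genes, -1.37 for H/ACA genes and -0.43 for U RNA genes, and 0.00 over all genes. Over the genes that passed the filter it was -1.07, -0.95, -1.37 and -2.23 for the same sets, and 0.00 over all genes. The value of -2.23 is again that of Rnu3a, at -3.13, and Rnu12, at -1.32. There were 48 members lower, 4 higher and 4 equal; 29.3% of all genes were lower and 35.1% higher. Of the 47 members that passed the filter, 25 were at least 2-fold lower and 1 at least 2-fold higher, against a background of 3.28% and 4.15%. H/ACA genes gave 12 of 20, C/D box genes 11 of 25 and U RNA genes 2 of 2 of the lower calls. Of the genes called, Snora20, Snora41, Snora62, Snora75, Rnu3a, Snord15a and Snord52 lay below the median probe set on the NTS/PGE2 array. They passed through the NTS array alone. Without the filter the lower counts were 12 of 20 H/ACA, 11 of 31 C/D box and 2 of 5 U RNA genes, beside 418 of 19938 over all genes. This comparison shares the NTS array with the first one, so the pair are not independent and a single high or low reading on that array enters both with opposite sign.

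No member was 2-fold different between NTS/PGE2 and control, with 40 passing the filter and a background of 0.0607% higher and 0.659% lower. Beside so low a background, that count does not set the members apart from all genes. Small differences leaned to one side: 40 members were lower on the NTS/PGE2 array, 6 higher and 10 equal, while 27.5% of all genes were lower and 30.7% higher. Medians were -0.16 over all members, -0.28 for C/D box genes, -0.12 for H/ACA genes and -0.30 for U RNA genes. The most negative values were -0.81 in Rnu5g, -0.76 in Snord42a and -0.76 in Snord61, and the most positive was 0.70 in Snord14e. Of these, Rnu5g and Snord61 were too dim to pass the filter. The comparison shares an array with each of the other two.

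**Figure D1:**
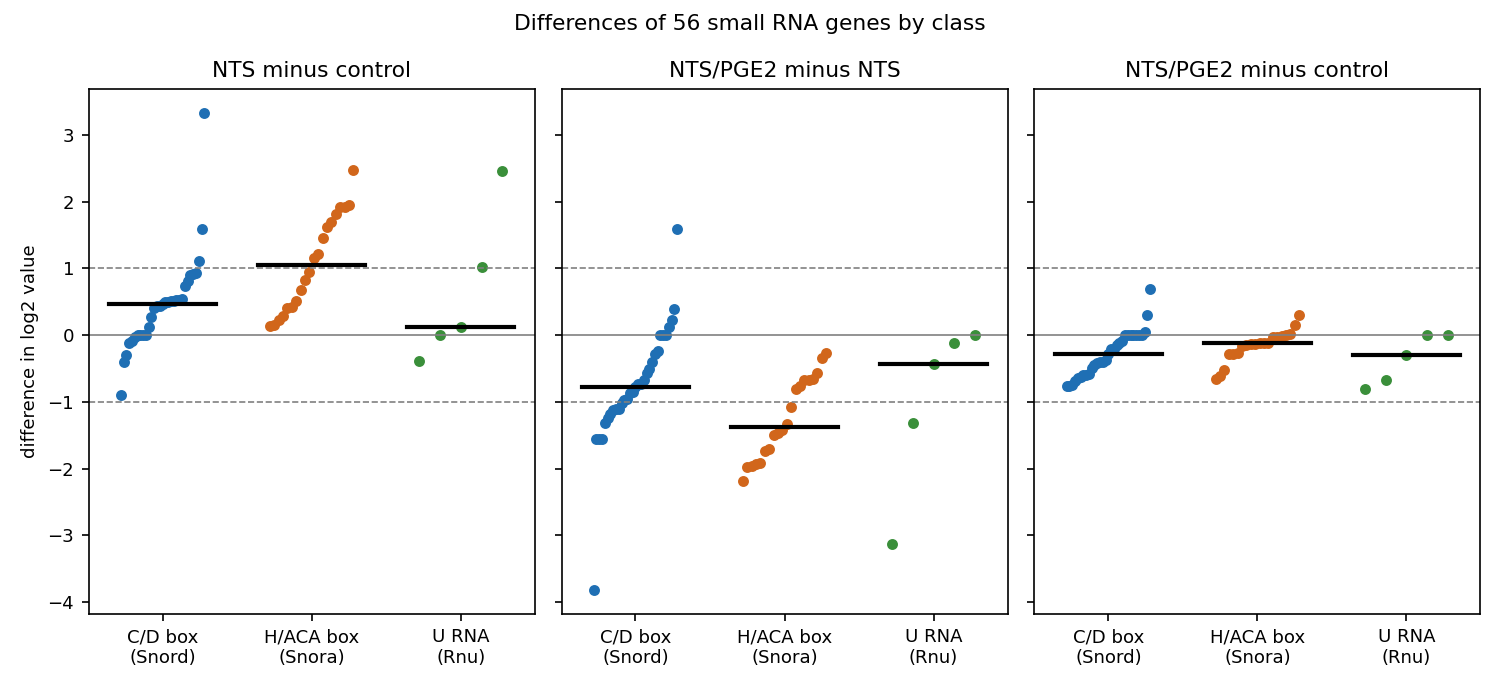
Difference in log2 value of each of the 56 genes in the 3 comparisons; points are genes sorted within their class, black bars are class medians and dashed lines mark 2-fold. H/ACA genes have a median of 1.06 for NTS minus control and -1.37 for NTS/PGE2 minus NTS, and all 3 classes lie within 2-fold for NTS/PGE2 minus control.

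The members that act in cutting the ribosomal RNA precursor differed widely among themselves. Snord118, which had the largest difference of all members, which is U8 and is needed to make the RNAs of the large ribosomal subunit, read 8.41 on the NTS/PGE2 array, 12.23 for NTS and 8.90 for control. The NTS array alone was high, by 3.33 over control, which is 10.0-fold, and the difference for NTS/PGE2 minus NTS was -3.82, which is 14.1-fold lower. Its 2 probe sets had identical values on all 3 arrays and count as 1 measurement. Rnu3a, a gene of U3, the C/D box RNA on which the small-subunit precursor is assembled and cut, read 6.83, 9.97 and 7.51 on the NTS/PGE2, NTS and control arrays. That is a difference of 2.46 for NTS minus control and -3.13 for NTS/PGE2 minus NTS, and the NTS/PGE2 value was below control by a difference of -0.67. By its function U3 belongs with the C/D box RNAs, although its symbol places it with the U RNAs here.

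Snora73a and Snora73b, the H/ACA RNAs known as U17, which serve small-subunit RNA cleavage, gave nearly the same result. Snora73a read 8.80, 10.75 and 8.83 on the NTS/PGE2, NTS and control arrays, and Snora73b read 8.98, 10.96 and 9.00. Their differences were 1.92 and 1.96 for NTS minus control. These are close copies in the same host gene, so probes may read both and the values are not independent. Snord22, or U22, also a small-subunit processing RNA, differed less, with 7.40 on the NTS/PGE2 array, 8.51 with NTS and 8.00 in control.

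Snord14e stood against the rest. It is a copy of U14, a C/D box RNA that both cuts and methylates, and it lies in the gene of the constitutive chaperone Hspa8. It read 11.02 on the NTS/PGE2 array, 9.42 for NTS and 10.33 for control, so that NTS was the lowest array and NTS/PGE2 the highest. The difference was -0.90 for NTS minus control, just inside 2-fold, and 1.60 for NTS/PGE2 minus NTS, the only member at least 2-fold higher there. Among members that passed the filter the next lowest difference for NTS minus control was -0.30, in Snord42b. The 6 processing RNAs, a grouping made with the values known, ran from -0.90 to 3.33 for NTS minus control and from -3.82 to 1.60 for NTS/PGE2 minus NTS.

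**Figure D2:**
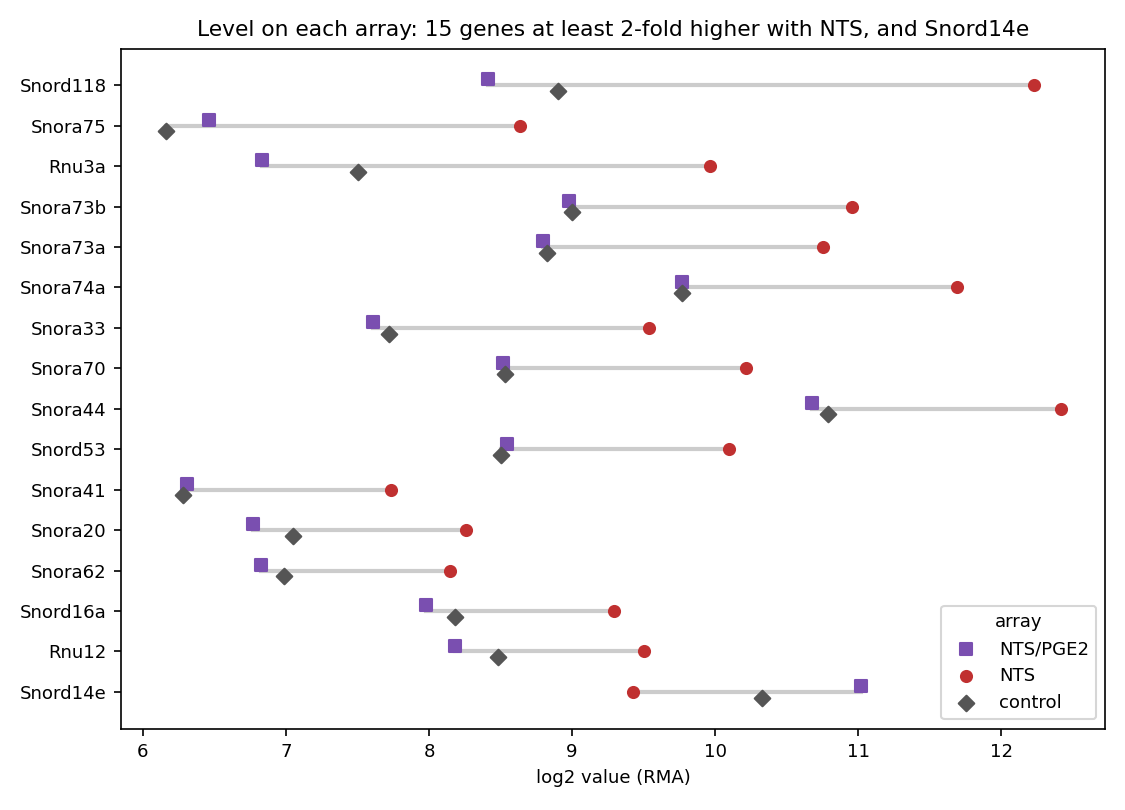
Log2 value on the NTS/PGE2, NTS and control arrays for the 15 genes 2-fold or more higher with NTS and for Snord14e; grey bars join the lowest and highest array. In the 15 genes the NTS point is the highest of the 3, as in Snord118 at 12.23 and Rnu12 at 9.50, while Snord14e has its lowest point on NTS.

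The H/ACA guides gave 10 of the 15 genes 2-fold or more higher with NTS. Snora75, or U23, from an intron of the nucleolin gene, read 6.46 on the NTS/PGE2 array, 8.64 with NTS and 6.16 in control, a difference of 2.48 for NTS minus control. Snora74a read 9.77, 11.69 and 9.77, and Snora44 read 10.68, 12.42 and 10.79, in the same order. Both come from non-coding host genes, Snhg4 and Snhg12. Snora33, in the ribosomal protein gene Rps12, read 7.61, 9.54 and 7.72. Snora70, in Rpl10, read 8.52 on the NTS/PGE2 array, 10.22 for NTS and 8.53 for control. For these guides the NTS/PGE2 and control values lay within 0.30 of each other, while NTS stood 1.63 to 2.48 above control. Snora41, Snora20 and Snora62 completed the set with Snora73a and Snora73b, at differences of 1.45, 1.21 and 1.16.

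The brightest H/ACA genes, Snora52 and Snora3, differed little. Snora52, in Rplp2, was the brightest member, with 12.65 on the NTS/PGE2 array, 12.99 with NTS and 12.76 in control. Snora3 read 11.64, 12.21 and 11.92, where its 2 probe sets gave differences of 0.30 and 0.28 for NTS minus control and -0.57 in both for NTS/PGE2 minus NTS. Brightness and size of difference did not go together throughout: Snora44, at 12.42 with NTS, differed by 1.63.

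C/D box genes had smaller differences, with a wider mix of signs. Besides Snord118, the C/D box genes 2-fold or more higher with NTS were Snord53 and Snord16a. Snord53, in the processome gene Wdr43, read 8.55, 10.10 and 8.50 on the NTS/PGE2, NTS and control arrays. Snord16a, in Rpl4, read 7.98, 9.29 and 8.18. The next were Snord49a, Snord15a, Snord15b and Snord49b, at 0.93, 0.92, 0.91 and 0.80, all under 2-fold, and Snord85 at 0.73. A run of C/D box genes then lay close together: Snord104, Snord33, Snord52, Snord22, Snord47, Snord38a, Snord35b, Snord35a, Snord73a and Snord73b had differences between 0.43 and 0.54, of which Snord38a and Snord73a were too dim to pass the filter.

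Snord33 and Snord35a belong to the snoRNAs in the introns of Rpl13a that are known from rodent cells to take part in the response to lipid and oxidative stress. Snord33 read 9.92 on the NTS/PGE2 array, 10.87 for NTS and 10.34 for control, and Snord35a read 9.85, 10.72 and 10.25. Both were highest on NTS, by differences of 0.53 and 0.47 over control, and lowest on NTS/PGE2.

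Several C/D box genes differed more between NTS/PGE2 and NTS than between NTS and control and were lowest on the NTS/PGE2 array. This was not particular to the class. Beside Snord87 at -0.69, the H/ACA genes Snora69 and Snora16a did so too, at -0.66 and -0.62 for NTS/PGE2 minus control. Snord47, from the Gas5 locus, read 9.10 on the NTS/PGE2 array, 10.34 with NTS and 9.84 in control. Snord42a, in Rpl23a, read 7.84, 8.58 and 8.60, with differences of -0.73 for NTS/PGE2 minus NTS, -0.76 for NTS/PGE2 minus control and -0.02 for NTS minus control. Its near neighbour Snord42b read 8.25, 8.03 and 8.33 and was lowest with NTS. Snord61, in the gene of the splicing protein Rbmx, read 6.31, 6.98 and 7.06, below the filter on each array.

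The brightest C/D box gene, Snord57 in Nop56, read 12.32 on the NTS/PGE2 array, 12.60 for NTS and 12.48 for control. Snord104 read 12.07, 12.31 and 11.77 and was among the few members above control on the NTS/PGE2 array, by 0.30. Snord8, Snord55 and Snord96a were exactly equal on all 3 arrays, at 8.26, 9.28 and 6.64. Median polish, the last step of the deposited processing, can return equal values from unequal probes, so these do not show that the RNAs were unchanged. Equal values on all 3 arrays were found in 4 of 56 members (7.14%) and in 25.4% of all probe sets. The first share is over genes with probe sets averaged and the second over every probe set, named or not. The shares are therefore not like for like.

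Of the U RNA genes, U3 apart, only Rnu12 passed the filter. U12 is a core RNA of the minor spliceosome, which removes a small class of introns. Rnu12 read 8.18 on the NTS/PGE2 array, 9.50 with NTS and 8.48 in control, a difference of 1.02 for NTS minus control, the smallest among the 15. The nearest member outside the rule was Snora31 at 0.95. Rnu5g, a gene of the U5 RNA that aligns exons in the spliceosome, read 5.24, 5.68 and 6.06 and was lowest on NTS/PGE2. Rnu7, the U7 RNA that serves the processing of histone mRNA ends, read 5.06, 5.18 and 5.06. Rnu6 read 2.53 on all 3 arrays, far below the 25th percentile. U6 is an abundant RNA in every cell, so a value at the floor of the array describes this probe set and not the RNA.

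**Figure D3:**
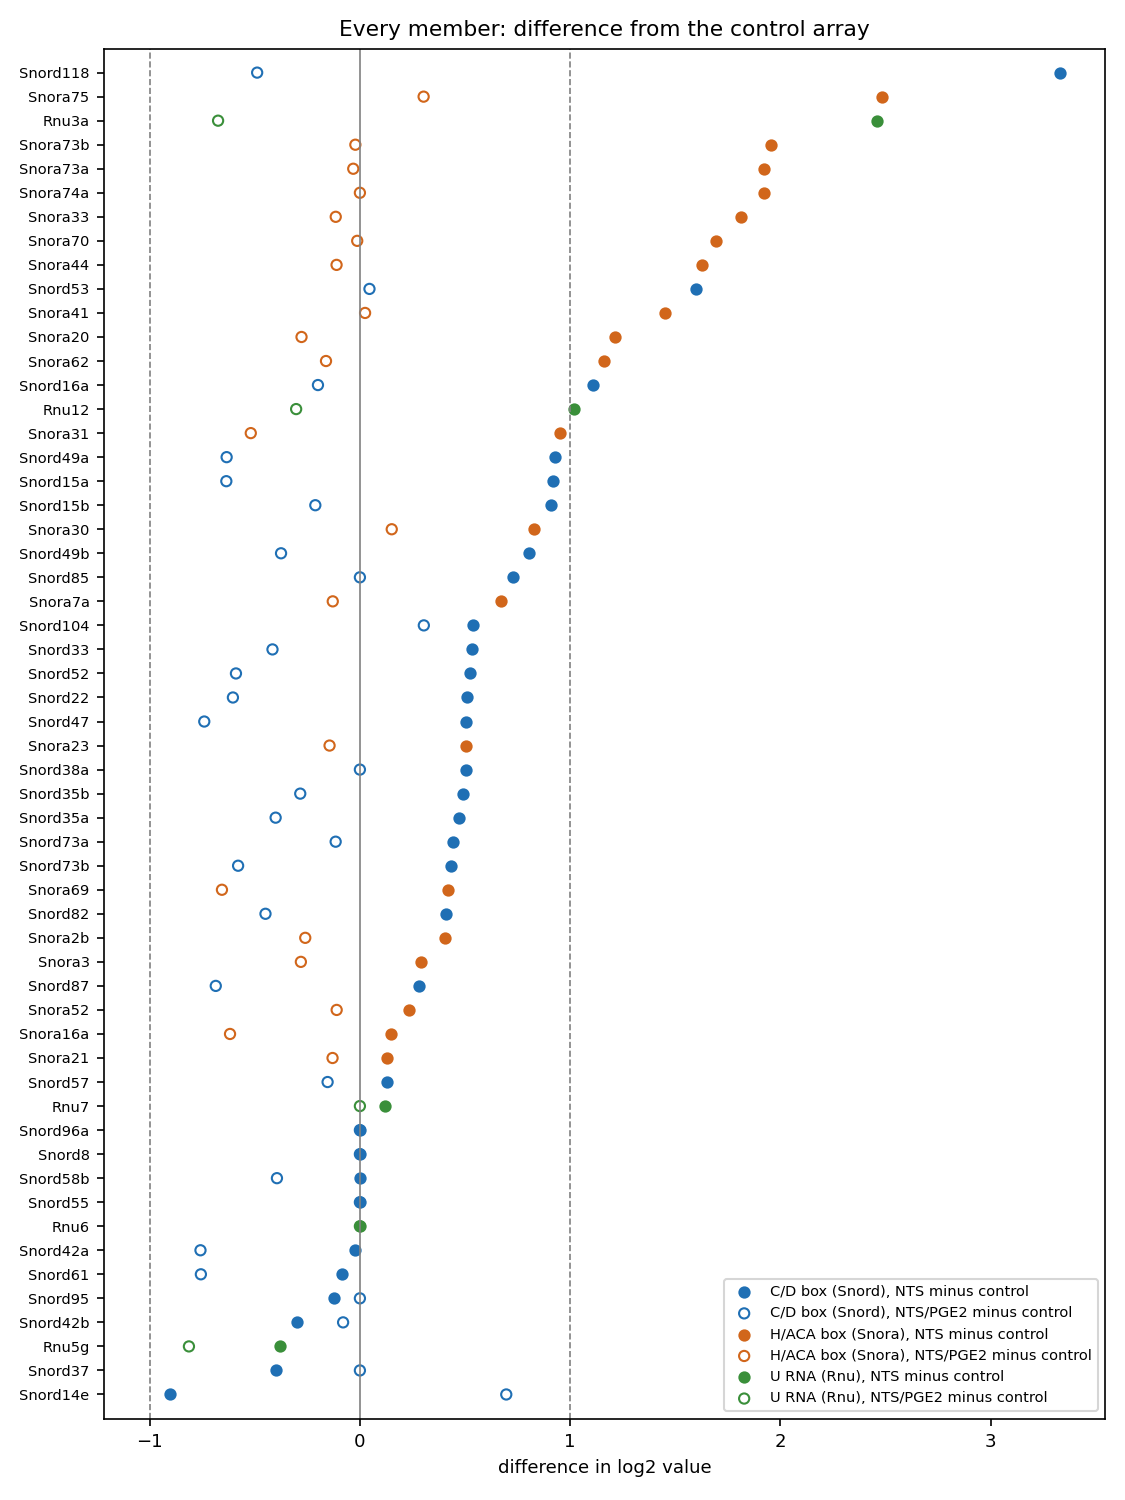
Difference from the control array of every member, sorted by NTS minus control; filled points are NTS minus control, open points NTS/PGE2 minus control, and dashed lines mark 2-fold. Filled points reach 3.33 in Snord118, while open points stay between -0.81 in Rnu5g, which did not pass the filter, and 0.70 in Snord14e.

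The genes that hold the small RNAs were read from the RefSeq gene table of the GRCm38.p6 assembly, in which all 56 members were found by gene identifier. A member was placed in a gene whose span holds it; the table gives no strand for members, and 3 members lay in 2 spans. The 5 genes Rnu3a, Snord118, Rnu12, Rnu6 and Rnu7 lay in none. The other 51 lay in 44 genes, of which 16 encode ribosomal proteins and hold 21 members. A further 11 of the 44 were non-coding RNA genes, holding 14 members.

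Host genes of this kind often start their transcripts with a terminal oligopyrimidine tract, a C followed by pyrimidines, which ties translation of ribosomal protein mRNAs to growth signals. The search was for a C followed by 4 bases that are each C or T, on the gene's own strand, beginning at the annotated first base. It was found in 6 of the 31 hosts with a sequence window (19.4%) and in 3.01% of 27025 genes of the table. The 6 starts with a match are shown, since a host's start was the sequence at hand that bears on the class of gene these RNAs come from; the other 25 hosts had none. Gas5 and 1110038B12Rik each have another annotated start, without a match. Each gives 20 bases before the annotated start and 10 from it, from RefSeq on GRCm38.p6, with the matched bases in capitals.
Gas5 (chr1:161035146-161035175, + strand): gactcagccgccatctcagcCTTTCggagc
Ipo7 (chr7:110018295-110018324, + strand): gggccttggcgcttctctttCCTTTcgcgc
Rplp2 (chr7:141447631-141447660, + strand): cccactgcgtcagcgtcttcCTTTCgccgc
Rack1 (chr11:48800340-48800369, + strand): tccggcggaggccgctctttCTTTTtctcc
Gm36220 (chr11:106500895-106500924, + strand): ggccacacgtccattccggcCTCTTatcga
1110038B12Rik (chr17:34952459-34952488, - strand): gaggcgggcggcacacgggtCTCTTtgtgc
A match describes these letters and not a working site. Annotated starts can lie some bases from the true start, so the lack of a match says only that the letters are not at that base. Members in these 6 hosts, Snord47, Snora23, Snora52, Snord95, Snord96a, Snord104 and Snord52, had differences between -0.12 and 0.54 for NTS minus control.

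Small RNAs and their hosts often read differently on these arrays. A host had a value of its own for 29 members, in 25 host genes. The median difference for NTS minus control was 0.44 over these members and 0.21 over their hosts, and 8 of the 26 members and 3 of the 24 hosts that passed the filter were at least 2-fold higher, beside 2.70% of all genes. The 3 hosts were Rps12, Rpsa and Rps3a1. Of the 29 pairs, the member's difference lay above the host's in 17 and below it in 12. For NTS/PGE2 minus NTS the medians were -0.86 over the members and -0.25 over the hosts, and the member lay below the host in 22 pairs.

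The widest gap was in the nucleolin gene. Snora75 differed by 2.48 and its host Ncl by 0.51, while Snord82, another snoRNA in Ncl, differed by 0.41. Snora70 differed by 1.69 and its host Rpl10 by -0.02. Snora20 differed by 1.21, where Tcp1, a chaperonin subunit gene, was equal on both arrays. In the opposite sense, Snord73a and Snord73b differed by 0.44 and 0.43 within Rps3a1, which differed by 1.06. Snora62 in Rpsa and Snora33 in Rps12 went with their hosts, at 1.16 beside 1.23 and 1.81 beside 1.33. Snord14e differed by -0.90 and Hspa8 by -0.14.

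Members of one host were close in some loci and far apart in others. The gap between the pair was 0.01 in Rps3 (Snord15a and Snord15b), 0.06 in Rpl13a and 0.12 in 2410006H16Rik (Snord49a and Snord49b) for NTS minus control. For NTS/PGE2 minus NTS the same loci had gaps of 0.44, 0.08 and 0.38, so Rps3 and 2410006H16Rik were closer in the first comparison than in this one. For NTS minus control the gap was 1.48 in Snhg12, where Snora44 differed by 1.63 and Snora16a by 0.15, and 2.07 in Ncl. Paralogous members such as Snord15a and Snord15b resemble each other in sequence, so their probes may read both.

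**Figure D4:**
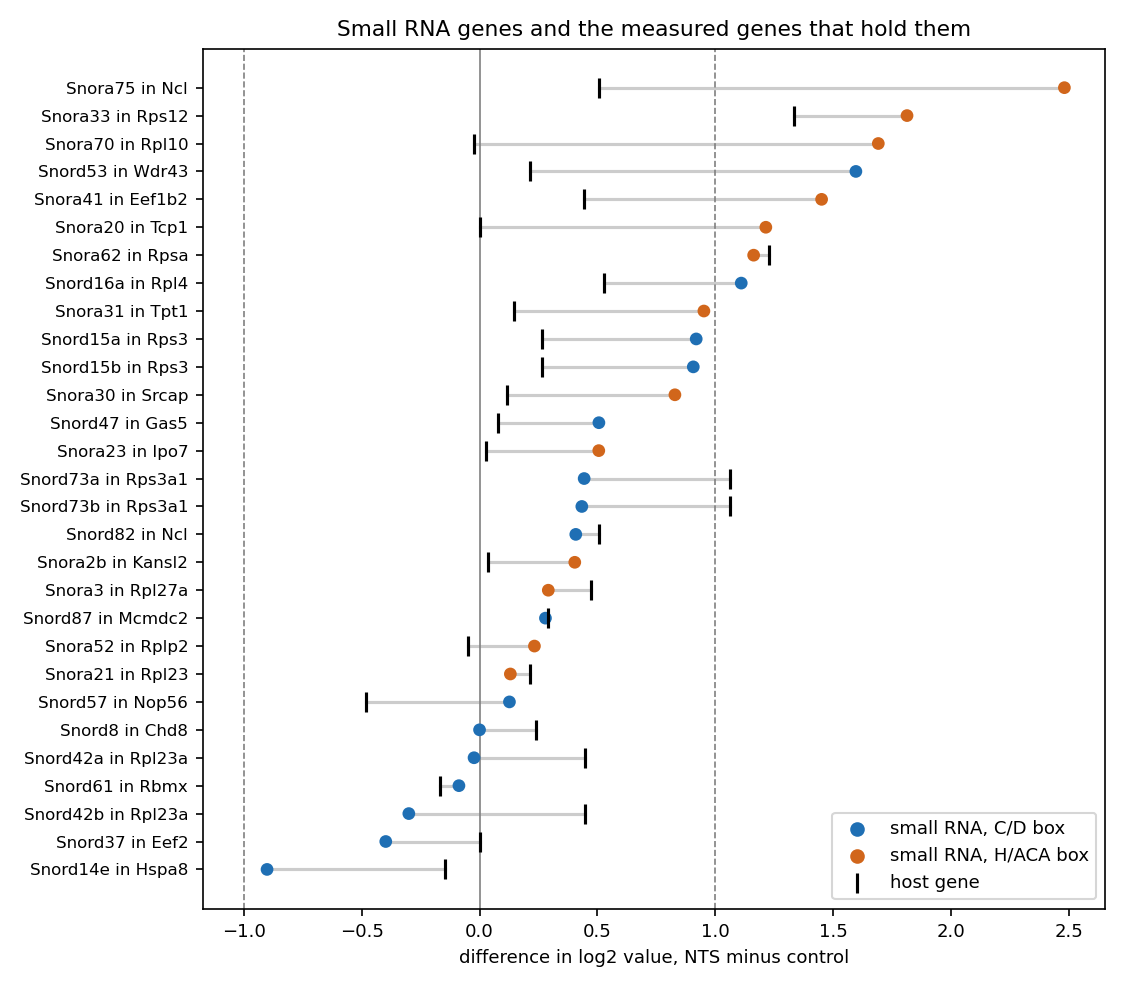
Difference for NTS minus control of 29 small RNA genes (points, coloured by class) and of the gene whose span holds each (black ticks); grey lines join the pair. Snora75 at 2.48 lies farthest from its host Ncl at 0.51, and Snora62 at 1.16 lies beside Rpsa at 1.23. Snord87 also lies in the span of Snhg6, and Snord8 and Snord47 each lie in a further span.

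Longer small RNAs tended to have larger differences, and length and class go together. RNA length in the gene table had a median of 68 nt over C/D box genes and 125 nt over H/ACA genes. Across the 56 members Pearson's r between length and the NTS minus control difference was 0.54 and Spearman's rho 0.48. Within the C/D box class r was 0.47 and rho 0.35 over 31 genes, and within the H/ACA class r was 0.23 and rho 0.05 over 20 genes. The 6 members of 150 nt or more had a median of 1.92, with 5 at least 2-fold higher, and the 23 members under 80 nt a median of 0.41, with 2. Between them, the 15 members of 82 to 117 nt had a median of 0.53, with 5. The 12 members of 120 to 148 nt had a median of 0.59, with 3. The medians below 150 nt thus lay close together, and the large value came from the 6 longest, among which Snora73a and Snora73b are close copies. Without the filter, 355 of 19938 genes were at least 2-fold higher. The 2 counted under 80 nt were Snord53, listed at 68 nt, and Snora20, which at 61 nt is the shortest H/ACA gene. Whether the listed lengths are those of the whole RNAs was not checked. All points share the same arrays, and several share a host or sequence, so these coefficients only describe the plot. The part of length in the class difference was not tested.

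**Figure D5:**
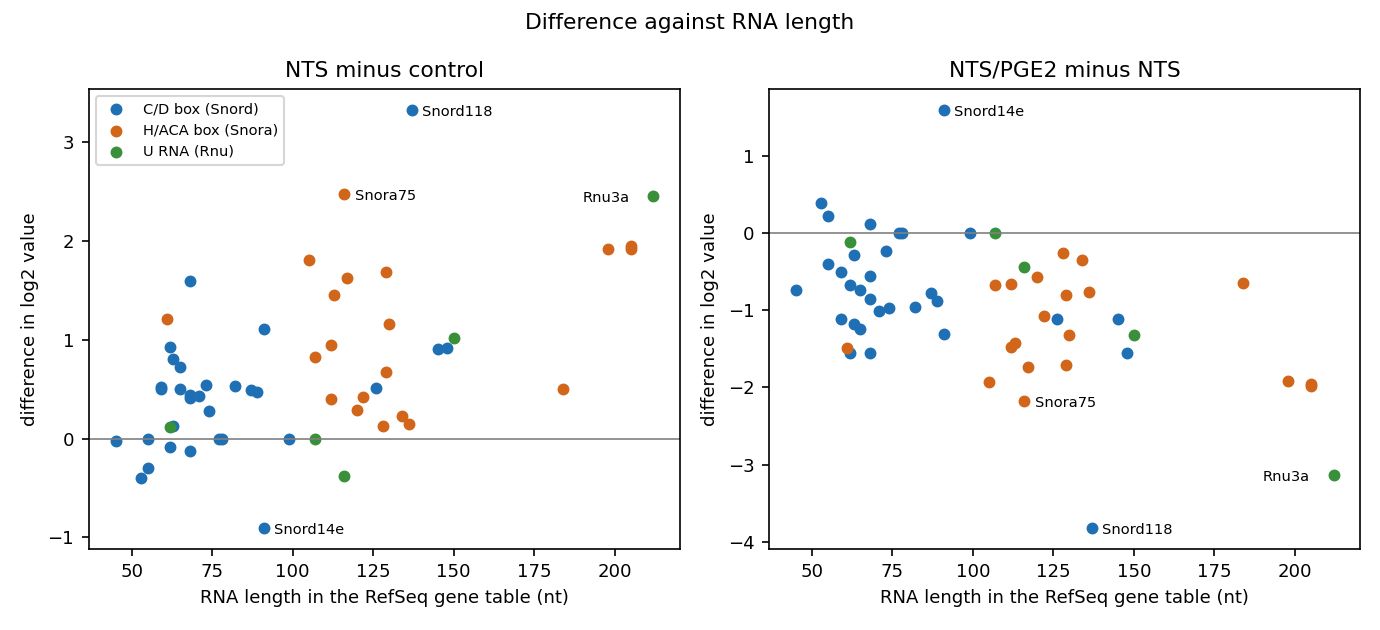
Difference in log2 value against RNA length in nt, for NTS minus control on the left and NTS/PGE2 minus NTS on the right; each point is a member, coloured by class. The longest member, Rnu3a at 212 nt, lies near the top on the left and near the bottom on the right, and Snord118 at 137 nt lies beyond it.

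A list of 11 other short non-coding RNA genes was written with the values known. Of these, 10 were higher with NTS than in control, the median was 0.60, and 1 of the 10 that passed the filter was at least 2-fold higher, beside 2.70% of all genes. That was Vaultrc5, the RNA of the vault particle, with 9.49, 11.62 and 9.35 on the NTS/PGE2, NTS and control arrays. The small Cajal body RNAs Scarna8, Scarna13 and Scarna17, which guide modification of the spliceosomal RNAs, differed by 0.60, 0.61 and 0.63. Of these, Scarna8 was too dim to pass the filter. Rn7sk and Rny3 read above 14 on every array and differed by 0.02 and -0.06. Among 300 microRNA genes 89 were higher, 44 lower and 167 equal, with a median of 0.00. Of the 62 that passed the filter 1 was at least 2-fold higher and 2 at least 2-fold lower, near the 2.70% and 5.42% of all genes. Ribosomal protein genes, 61 in number, had a median of 0.25, and 4 of the 58 that passed were at least 2-fold higher, beside 2.70% of all genes.

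Most mRNAs of the proteins that bind these RNAs differed by less than 2-fold. The 4 C/D core genes gave -0.48 for Nop56, 0.30 for the methyltransferase Fbl, 0.09 for Snu13 and 0.07 for Nop58 in NTS minus control. Of the H/ACA core genes Nhp2 was the exception: it read 8.45 on the NTS/PGE2 array, 9.55 for NTS and 8.36 for control, a difference of 1.19. That is 1 of 4 H/ACA core genes at least 2-fold higher and 0 of 4 C/D core genes, beside 2.70% of all genes. For NTS/PGE2 minus NTS Nhp2 differed by -1.10, where 3.28% of all genes were at least 2-fold lower. Dkc1, which encodes the pseudouridine synthase dyskerin, read 7.49, 7.31 and 8.06 and was lower on both treated arrays, by -0.75 for NTS and -0.58 for NTS/PGE2. Gar1 differed by 0.17 and Nop10 by 0.04 for NTS minus control.

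Lists of the wider machinery had medians near 0 and 0 members at least 2-fold different for NTS minus control, against the background of 2.70% and 5.42%. These were snoRNP assembly (10 genes, median 0.00), the U3 particle and small-subunit processome (22, 0.04), ribosomal RNA synthesis (16, 0.00), snRNA transcription and export (21, -0.04), Sm and LSm assembly (24, 0.00), spliceosomal snRNP proteins (19, 0.00) and debranching with the nuclear exosome (16, 0.00). Their largest differences were in the processome gene Nol6 at 0.83, the Sm genes Snrpd1 at 0.91 and Snrpg at 0.89, the exosome gene Exosc9 at 0.71 and, on the lower side, the cap-binding gene Ncbp2 at -0.84 and the Integrator gene Ints3 at -0.76. For NTS/PGE2 minus NTS, Exosc9 at -1.03 was the only gene of these lists past 2-fold. Over all genes that passed the filter the background there was 3.28% lower and 4.15% higher. The 4 measured non-coding host genes, of 17 listed, had a median of 0.10, or 0.36 with the brightest probe set of each gene, led by Snhg5 at 0.84.

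Markers of the tissue were present, and markers of cell state differed between the arrays. The 2-fold counts below stand beside 2.70% higher and 5.42% lower with NTS than in control over all genes that passed the filter. Among 8 kidney markers, 4 were at least 2-fold lower with NTS than in control, and the log2 of their summed signal was 15.76 on the NTS/PGE2 array, 14.94 with NTS and 15.62 in control. The 4 injured-tubule markers were all at least 2-fold higher on NTS than on control, with sums of 10.84, 14.55 and 11.97 in the same order. Of 3 measured genes of cycling cells, each was higher on NTS, with sums of 7.83, 10.08 and 7.67, and Mki67 differed by 2.37. Fat markers set the control array apart, with 7 of 8 at least 2-fold higher on control than on NTS and sums of 9.58, 9.77 and 14.04. Blood and immune markers had sums of 10.50, 11.06 and 11.25, with 1 of 6 higher and 2 lower at 2-fold on NTS, and neuronal markers, all dim, 8.24, 8.24 and 8.34. The part of cell composition in the small RNA differences was not tested.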

How the data were processed

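Kidney total RNA, 250 ng for each array, was turned into biotinylated cDNA, per the labels' protocols. The log2 values were deposited by the authors after Affymetrix Expression Console and RMA, per the submitters' processing notes. Neither tool versions nor a build could be read from the sources used here. RMA corrects background, equalises the arrays' distributions and summarises probes by median polish, which can understate small differences. Of 35556 probe sets, 21789 had 1 symbol in the platform annotation, 1621 several and 12146 were unnamed here. Probe sets of a gene were averaged. Differences, medians and counts were computed with pandas 2.3.3 and checked on simulated data; no test was run. The members, lists and alternatives were chosen with earlier results of these data known. Named members were the 10 largest differences each way per comparison among those passing the filter, every Rnu gene, the 5 brightest of each class, and from partner lists up to 4 genes and every core gene. Further members, and the processing RNA and host gene groupings, were named after their values were seen. Technical spread came from genes with 2 bright probe sets that were not identical. Alternatives were the brightest probe set, centring, probe sets of several symbols, equal values left out, 2 other filters and a 1.5-fold rule.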

Additional observations from a re-analysis of the deposited data

How the results depend on the processing

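Centring the arrays on the median of all genes and taking the brightest probe set altered no class median by more than the SD of a probe set's difference and no class count by over 1.5 times. Dropping the filter, which bears on counts alone, altered no count by over 1.5 times. Of the partner lists, the brightest probe set moved the median of the non-coding host genes to 0.36 for NTS minus control. No median of the members or a class changed sign under any alternative run. With a 1.5-fold rule, NTS against control gave 23 members higher and 1 lower (C/D box 8 and 1), NTS/PGE2 against NTS gave 18 C/D box genes lower, and NTS/PGE2 against control gave 1 higher and 9 lower (C/D box 1 and 6, H/ACA 2 lower, U RNA 1 lower). With a filter at the 75th percentile, 6 H/ACA genes were at least 2-fold higher on NTS than on control, and the median for NTS/PGE2 minus NTS was -1.12 over all members and -0.98 for C/D box genes. No share over all genes is given under the 1.5-fold rule or this filter. The counts under them therefore have no background here and show only how the member counts move. Applying the median filter to the median too, an alternative chosen after seeing the data, gave -1.07 over all members for NTS/PGE2 minus NTS.

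The U RNA medians rest on 5 genes, 3 of them below the filter. For NTS minus control the median was 1.74 over those passing either filter, 0.57 without the exactly equal gene and 1.02 with the U1 and U3b probe sets of several symbols, which raised the count at least 2-fold higher to 4. For NTS/PGE2 minus NTS these were -2.23, -0.88 and -1.32, with 4 lower. For NTS/PGE2 minus control they were -0.49 with the filter and -0.67 without equal genes. Leaving out equal values gave -0.28 over all members and -0.41 for C/D box genes in that comparison. No paired analysis was possible because each group has 1 array. For the same reason no replicate could be left out. Signal over background is unknown, as no scanner values were used here.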

Other observations

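Probe sets with several symbols were left out of the counts above, and some read further small RNAs. A group of 9 probe sets for the U1 genes Rnu1b6, Rnu1b2 and Rnu1b1, the RNA that finds the start of introns, averaged 8.66 on the NTS/PGE2 array, 10.16 for NTS and 8.96 for control. Its sets held 3 distinct patterns of values. The U3 genes Rnu3b1 to Rnu3b4 shared 4 probe sets with identical values, at 8.27, 10.12 and 8.81 in the same order. For U2, which pairs with the branch point, 7 probe sets that also carry the symbol Rdm1 averaged 12.73, 13.00 and 13.05, with a difference of -0.05 for NTS minus control. The probe sets of Snord14c and Snord14d, which also carry the symbol of their host Hspa8, read 11.11, 9.54 and 10.90. They were lowest on NTS, like Snord14e, with -1.36 for NTS minus control and 1.57 for NTS/PGE2 minus NTS. These copies lie in the same host gene as Snord14e, so probes may read several of them and the values are not independent. The probe set of Snord14a, which also carries the symbol Rps13, went the other way. It read 7.03, 7.40 and 7.03, with 0.37 for NTS minus control and -0.37 for NTS/PGE2 minus NTS. Snora24, with its host Snhg8, read 7.75, 9.47 and 8.50.

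The imprinted Snord116 cluster, known for its expression in neurons and its loss in Prader-Willi syndrome, was highest in control. The 24 probe sets of Snord116l1, Snord116l2 and Gm26504, with 6 distinct patterns of values, averaged 5.57 on the NTS/PGE2 array, 6.19 with NTS and 7.64 in control. The NTS/PGE2 minus control difference of -2.07 lay past that of every one of the 56 members. Its NTS/PGE2 value was below that array's 25th percentile of 5.79, so the size of the difference rests on a value that may be background. Snord1b and Snord1c, read by shared probe sets, were at 5.63, 7.07 and 6.79. Here too the NTS/PGE2 value was below the 25th percentile, and the NTS/PGE2 minus control difference was -1.16.

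Exact values were shared between genes on an array. Among the 61 member probe sets, 31.1% for NTS/PGE2, 14.8% for NTS and 39.3% for control had a value that another gene's probe set also had, beside 37.5%, 33.2% and 37.6% of all single-symbol probe sets. Snora69 and Snora70, for example, both read 8.53 on the control array, equal to 4 decimals.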
